A study of Mus musculus with 8 samples.

Results

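The genes described here encode the proteins of the cytosolic ribosome, measured by RNA-seq in MLO-Y4 cells, a mouse line with features of osteocytes, the cells that sit in bone matrix. Members were the protein-coding genes whose symbol has the form Rpl or Rps with a number, plus Rplp0, Rplp1, Rplp2, Rpsa and Fau. Pseudogenes and the Rps6k kinases were left out. The rule found 84 genes among 55359 rows of the deposited table, 51 for the large subunit and 33 for the small subunit. Both groups are wild type MLO-Y4 cells grown on dishes coated with rat tail collagen and seeded 72 h before the treatment. The irradiated group, with 4 libraries, received 6 J/cm2 from a pulsed Er:YAG laser (2940 nm) for 1 min at a distance of 25 cm from the bottom of 35-mm dishes, with the medium taken off first. The non-irradiated group, also with 4 libraries, received no laser light, and whether its medium was removed is not given in the sources used here. RNA was taken after 6 h and enriched for poly(A). All libraries come from 1 cell line, and nothing in the labels says whether they came from separate cultures, so each p-value measures only the spread between these libraries. In library names C stands for non-irradiated and L for irradiated, with the column numbers 5 to 8 of the table.

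A ribosome is made of a small subunit, which reads the mRNA, and a large subunit, which joins the amino acids, and each ribosome takes about equal numbers of most of its proteins. In vertebrates the mRNAs of ribosomal proteins begin with a C followed by a run of pyrimidines, the 5′ terminal oligopyrimidine (TOP) motif. Through it the kinase complex mTORC1 and the binding protein LARP1 set how much of these mRNAs is translated and how long they last. Many members have processed pseudogenes in the genome with nearly the same sequence, and some have paralogs that take their place in muscle or germ cells.

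A library held 43786209 to 51734166 counts in all, and 19034 to 19508 genes had at least 1 count. The TMM scaling factors lay between 1.003 and 1.012 in non-irradiated and between 0.989 and 0.997 in irradiated libraries, without overlap. Of 6 osteocyte markers, Sost and Mepe were at 0 in every library and Dmp1 did not exceed 0.669 CPM (counts scaled to the TMM-adjusted library total). The summed level of the 6 was 738 to 765 CPM in non-irradiated and 927 to 960 CPM in irradiated libraries, nearly all of it Pdpn and Gja1. Summed markers of chondrocytes (4 genes, Acan at 0) lay between 140.0 and 144 CPM in non-irradiated and between 210.0 and 228 CPM in irradiated libraries, nearly all of it Sox9. Those of macrophages (4 genes, Ptprc and Adgre1 at 0) lay between 17.2 and 20.9 CPM and between 28.1 and 31.3 CPM, mostly Csf1r. The 4 endothelial, 4 epithelial, 4 adipocyte and 6 germ cell markers summed to no more than 0.712 CPM in any library. The 6 markers of skeletal and heart muscle, with Myod1, Ckm and Myh6 at 0, summed to 16.2 to 19.6 CPM and 17.4 to 23.4 CPM. The part of these differences in the results below was not tested.

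Ribosomal protein mRNAs were among the most abundant in these cells. On the scale of CPM per kb of coding sequence, the median over the 81 members that passed the low-count filter was 821 in non-irradiated libraries, against 22.8 over all 12337 tested genes with a coding length. It lay above 98.8% of those genes. Small subunit genes (median 874, from 468 to 1694) were more even than large subunit genes (median 737, from 3.58 to 10520). Rpl41, whose product is a very short peptide, headed the order with 10520, but its coding length of 75 nt leaves out the untranslated bases that also give reads, so the value is too high for the mRNA as a whole. Rplp1, a protein of the lateral stalk that draws in translation factors, followed with 2366. After it came Rps29 (1694) and Rpl19 (1679). For Rps29 too the coding length, 168 nt of a 390-nt transcript, leaves out untranslated bases, so its place depends on this scale. Rpl12 (1254) completed the highest 4 of the large subunit. In the small subunit Rps2 (1393), Rps26 (1359.5) and Rpsa (1327.5) came after Rps29. At the low end stood Rpl29 (3.58), Rpl21 (10.2), Rpl35a (77.8) and Rpl7l1 (139.8) in the large subunit and Rps27l (468), Rps27a (521), Rps10 (573) and Rps13 (631) in the small subunit. The first 3 of these take under 10% of the counts of their own gene family, as described further on, so the low level is that of the annotated gene without its copies.

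**Figure D1:**
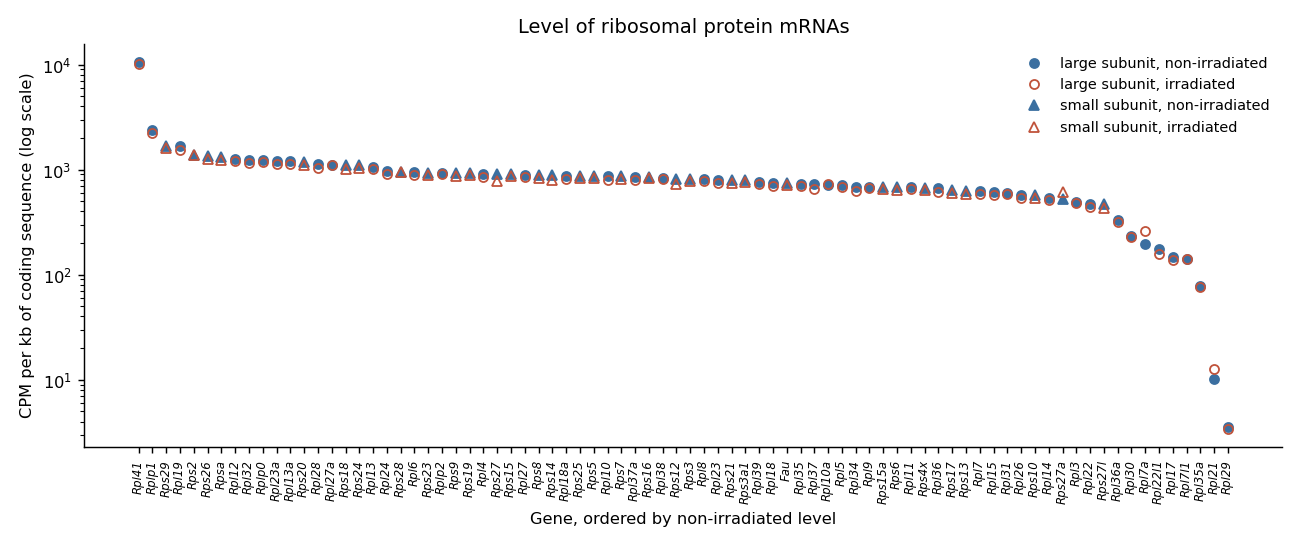
Level of the tested ribosomal protein genes in CPM per kb of coding sequence (log scale), ordered by the non-irradiated mean; filled symbols are non-irradiated and open symbols irradiated means of 4 libraries. Most members lie close to the median of 821, and Rpl29, Rpl21 and Rpl35a lie under 100.

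Of the members, 3 paralogs known from other tissues gave no count. Rpl3l of skeletal and heart muscle and the germ cell paralogs Rpl10l and Rpl39l stood at 0 in all 8 libraries. A count of 0 allows up to 3 counts, or 0.0685 CPM in the smallest library (0.274 CPM if a fragment adds about 4 counts), for counting error only.

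At 6 h after irradiation most ribosomal protein mRNAs had a slightly lower mean in the irradiated group. In single libraries the median member overlapped between the groups. It stood lower in C6 (-0.08, log2 from the non-irradiated mean) than in L5 and L6 (-0.05 each). By edgeR's quasi-likelihood test with Benjamini-Hochberg adjustment, 19 of the 81 tested members fell (12 of 48 large and 7 of 33 small subunit genes), 0 rose and 62 were not called. The count higher was also 0 at an unadjusted p under 0.05, and 0 with DESeq2 and with limma-voom. Over all 15164 tested features 6.75% were called lower and 8.22% higher. In the fitted log2 fold changes 75 of 81 members were below 0, against 51.6% of all features. Members mostly deviated together within a library, as given below, so such counts of members are not counts of separate observations. The median log2 fold change was -0.08 over the members (-0.07 for the large and -0.08 for the small subunit) and -0.01 over all features, so the typical member differed by a few percent. In bulk RNA, fewer cells of a type and less RNA per cell cannot be told apart. Between the quartiles the members ran from -0.11 to -0.05. In 11 members, 8 large and 3 small, every irradiated library was below every non-irradiated one, as in 8.78% of all features, and in 0 members was the order the opposite. Leaving out 1 library moved the count of members that fell from 19 to 6 (without C5), 41 (C6), 7 (C7), 4 (C8), 8 (L5), 17 (L6), 5 (L7) and 8 (L8), and the median log2 fold change stayed between -0.11 and -0.06. The share of all features called lower was 4.57%, 7.57%, 4.5%, 4.86%, 4.75%, 6.03%, 4.5% and 5.02% in the same order, so that without C8 the 4 of 81 members were near the background. With offsets for transcript length and GC content 8 members fell, against 7.73% of all features, and the median of the members was -0.04.

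The summed share of ribosomal protein genes in all counts was 3.39% in C5, 3.23% in C6, 3.53% in C7 and 3.61% in C8. It was 3.25% in L5, 3.30% in L6, 3.15% in L7 and 3.15% in L8. The non-irradiated libraries C5, C7 and C8 stood above every irradiated one, and C6 stood among the irradiated ones, so the groups overlapped. Group means were 3.44% ± 0.166 and 3.21% ± 0.0724 (SD, n = 4 each). The same sum was 34130 ± 1540 CPM and 32408 ± 614 CPM, a difference of 5.05% of the non-irradiated level. C6 was low across nearly the whole set, with 78 of 81 members under the mean of its own group, and C8 was high, with 76 above it. Among irradiated libraries L7 had 65 members under its group mean and L6 had 66 above. Deviations of the members mostly shared a sign within a library: the median member stood -0.08 (log2) from the non-irradiated mean in C6 and 0.07 in C8, and -0.05 in L5 and L6, -0.12 in L7 and -0.10 in L8. Without both libraries numbered 6, an alternative chosen after the low share of C6 was seen, 43 members fell. In that fit 7.62% of all features were called lower.

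**Figure D2:**
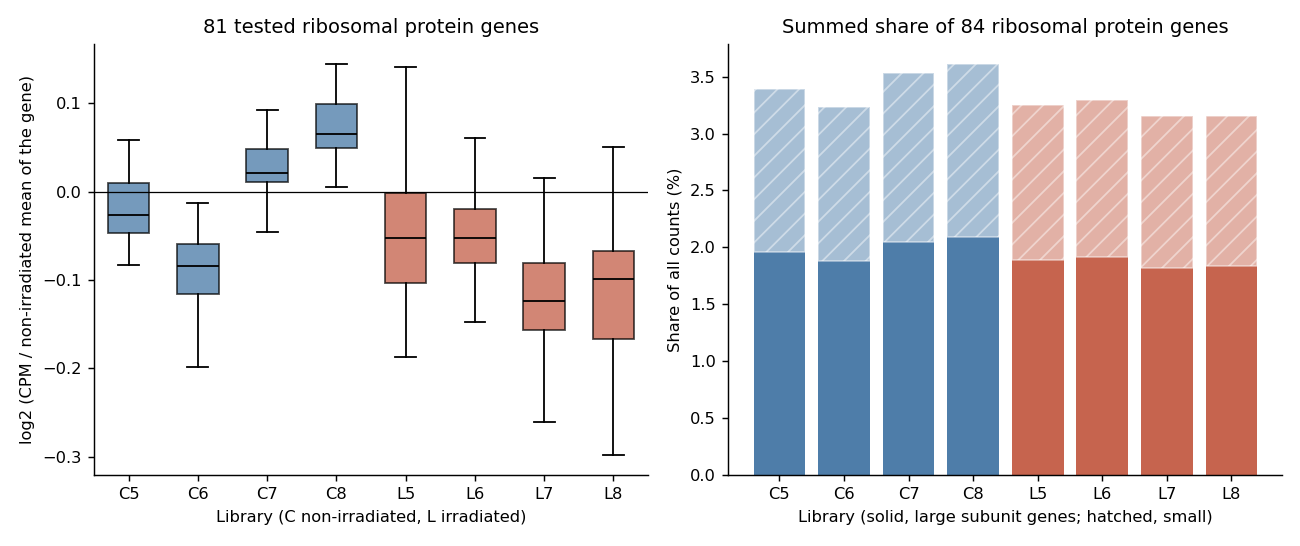
Left, log2 ratio of each of 81 tested members to its non-irradiated mean, by library (box, quartiles; line, median; whiskers, values within 1.5 box lengths); right, the share of all counts taken by the 84 members, stacked by subunit. The C6 box lies with the irradiated libraries, and shares run from 3.15% to 3.61%.

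Large and small subunit genes differed by about the same amount. Large subunit genes summed to 1.99% ± 0.0939 of all counts in non-irradiated and 1.86% ± 0.045 in irradiated libraries. For small subunit genes the shares were 1.45% ± 0.0722 and 1.35% ± 0.0283. The ratio of the large to the small sum ran from 1.37 to 1.39 in both groups, with means of 1.379 ± 0.00705 and 1.382 ± 0.0117 (SD, n = 4 each), so any difference in this ratio was smaller than its spread between libraries.

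Among the large subunit genes that fell, Rpl19, a protein that also bridges the subunits, was at 969, 936, 1021 and 1024 CPM in C5 to C8 and at 894, 932, 875 and 909 CPM in L5 to L8. All irradiated values were lower, though L6 and C6 nearly met. Its log2 fold change was -0.13 ± 0.03 (SE, adjusted p = 0.00747, edgeR), and it was called under every one of 20 alternative analyses. Rpl34 stood at 232, 238, 235 and 263 CPM without and 221, 225, 214 and 211 CPM with irradiation (log2 fold change -0.15 ± 0.04, adjusted p = 0.011), with no overlap. Rpl4, one of the longest large subunit proteins, which reaches into the exit tunnel for the new peptide, was at 1141, 1098, 1159 and 1218 CPM and then at 1076.5, 1074, 1052 and 1056 CPM. Its fall was -0.12 ± 0.03 on the log2 scale (adjusted p = 0.0105), and the irradiated libraries were closer to each other than the non-irradiated ones. Rpl10, which is added last and completes the subunit, had 548, 536, 567 and 588 CPM against 494, 531, 516 and 514 CPM, again without overlap (-0.12 ± 0.03, adjusted p = 0.0134). Rpl34 and Rpl4 each lost the call in 1 of the alternatives and Rpl10 in 2.

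Rpl22l1, a paralog of Rpl22, had the largest fitted fall of the called members (1.11-fold). It was at 65.6, 62.5, 61.4 and 66.4 CPM in non-irradiated and 56.5, 60.5, 55.4 and 57.5 CPM in irradiated libraries (log2 fold change -0.15 ± 0.05, adjusted p = 0.0366). The groups did not overlap, and the call was lost in 7 of the 20 alternatives. Rpl24 was at 469, 436, 467 and 476 CPM and at 421, 444, 422 and 409 CPM, where L6 exceeded C6 (-0.12 ± 0.03, adjusted p = 0.015). Rpl23, which can bind the p53 regulator MDM2, was at 331, 316, 343 and 360.2 CPM and at 323, 318, 299 and 301 CPM (-0.12 ± 0.04, adjusted p = 0.0371), and C6 lay below L5 and L6. Rpl13a, known for a role outside the ribosome in silencing inflammatory mRNAs, was at 729.7, 715, 739.6 and 769 CPM and at 679, 698, 698 and 695 CPM (-0.09 ± 0.03, adjusted p = 0.03), without overlap. The other large subunit genes that fell were Rpl32, Rpl22, Rpl23a and Rpl7, with log2 fold changes from -0.11 to -0.09. The call was lost in 6 alternatives for Rpl24, in 7 for Rpl32, in 9 each for Rpl23, Rpl13a and Rpl7, and in 10 each for Rpl22 and Rpl23a.

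In the small subunit, Rps14, a protein of the platform near the site where the mRNA leaves, was at 392, 395, 419 and 389.9 CPM in C5 to C8 and at 364, 360.1, 356 and 372 CPM in L5 to L8. Every irradiated value was below every non-irradiated one. The log2 fold change was -0.14 ± 0.03 (adjusted p = 0.00463), and the call held in all 20 alternatives, as for Rpl19 and no other member. Rps18, of the head of the subunit, was at 489.7, 489.5, 509.8 and 529 CPM and at 462, 475, 478 and 449 CPM (-0.11 ± 0.03, adjusted p = 0.0187), with no overlap. Rpsa, also known as a laminin receptor, was at 1188, 1125, 1192 and 1195 CPM and at 1077, 1103, 1110.3 and 1105 CPM. C6 stood apart below the other non-irradiated libraries and still above all irradiated ones (-0.10 ± 0.03, adjusted p = 0.0181). Rps26, at the mRNA exit, was at 471, 431, 497 and 477 CPM and at 421, 441, 418 and 446 CPM (-0.12 ± 0.04, adjusted p = 0.0383), and C6 lay within the irradiated range. Rps6, the ribosomal protein that S6 kinases phosphorylate, was at 519, 487, 509 and 529 CPM and at 479, 493, 463 and 476 CPM (-0.10 ± 0.03, adjusted p = 0.042), where L6 exceeded C6. Rps9 also fell, with a log2 fold change of -0.10 ± 0.03 (adjusted p = 0.0405). Of these, Rpsa lost the call in 5 alternatives, Rps18 in 6, and Rps26, Rps6 and Rps9 in 10 each.

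**Figure D3:**
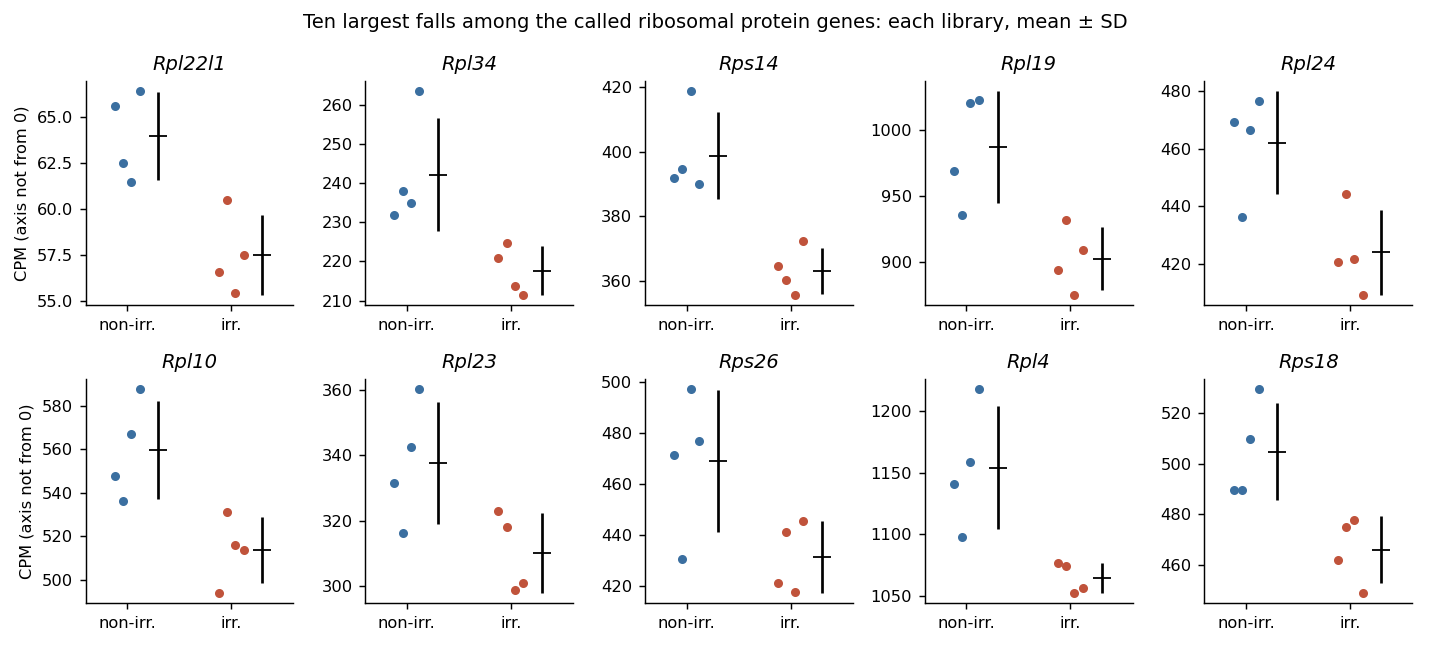
CPM of the 10 called members with the largest falls, 1 point per library with mean ± SD beside them (n = 4 per group; axes do not start at 0). The groups are separate for Rpl22l1, Rpl34, Rps14, Rpl19, Rpl10, Rpl4 and Rps18 and overlap for Rpl24, Rpl23 and Rps26.

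Several members with known special roles did not pass the test. The acidic stalk proteins Rplp0, Rplp1 and Rplp2 had log2 fold changes of -0.05 ± 0.03, -0.08 ± 0.03 and -0.04 ± 0.07 (adjusted p = 0.248, 0.14 and 0.807, edgeR). Rplp0 was at 1145, 1143, 1185 and 1213 CPM and at 1158, 1139.5, 1096 and 1129 CPM, and the groups overlapped. Rpl5 and Rpl11, which with 5S rRNA bind MDM2 when ribosome assembly is disturbed, had -0.07 ± 0.03 each (adjusted p = 0.0914 and 0.146). Rpl5 was at 643, 608, 653 and 637 CPM in non-irradiated and 608, 599, 597 and 611 CPM in irradiated libraries, so C6 alone lay within the irradiated range. Rps3, at the mRNA entry and also known in DNA repair, had -0.08 ± 0.03 (adjusted p = 0.108), and Rps19, the gene most often mutated in Diamond-Blackfan anaemia, -0.05 ± 0.04 (adjusted p = 0.468). Rpl38, known for effects on the translation of Hox mRNAs, was noisy, with 157, 159, 176.5 and 208 CPM and 189.8, 179, 168 and 150.4 CPM (-0.03 ± 0.11, adjusted p = 0.91). Fau, made as a fusion of a ubiquitin-like protein with a small subunit protein, had -0.05 ± 0.04 (adjusted p = 0.423).

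Only 6 members had a log2 fold change above 0, and none of them was called: Rpl7a (0.40 ± 0.36), Rpl21 (0.31 ± 0.17), Rps27a (0.22 ± 0.29), Rpl10a (0.04 ± 0.04), Rps28 (0.01 ± 0.09) and Rpl7l1 (0.01 ± 0.04). For the first 3 the SE is several times that of most members. With near-identical copies added, as described below, Rpl7a (-0.02 ± 0.03), Rpl21 (-0.08 ± 0.04) and Rps28 (-0.03 ± 0.09) were below 0. Rps27a (0.01 ± 0.12), Rpl10a (0.03 ± 0.04) and Rpl7l1 (0.01 ± 0.04) stayed above 0, and none of these was called.

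**Figure D4:**
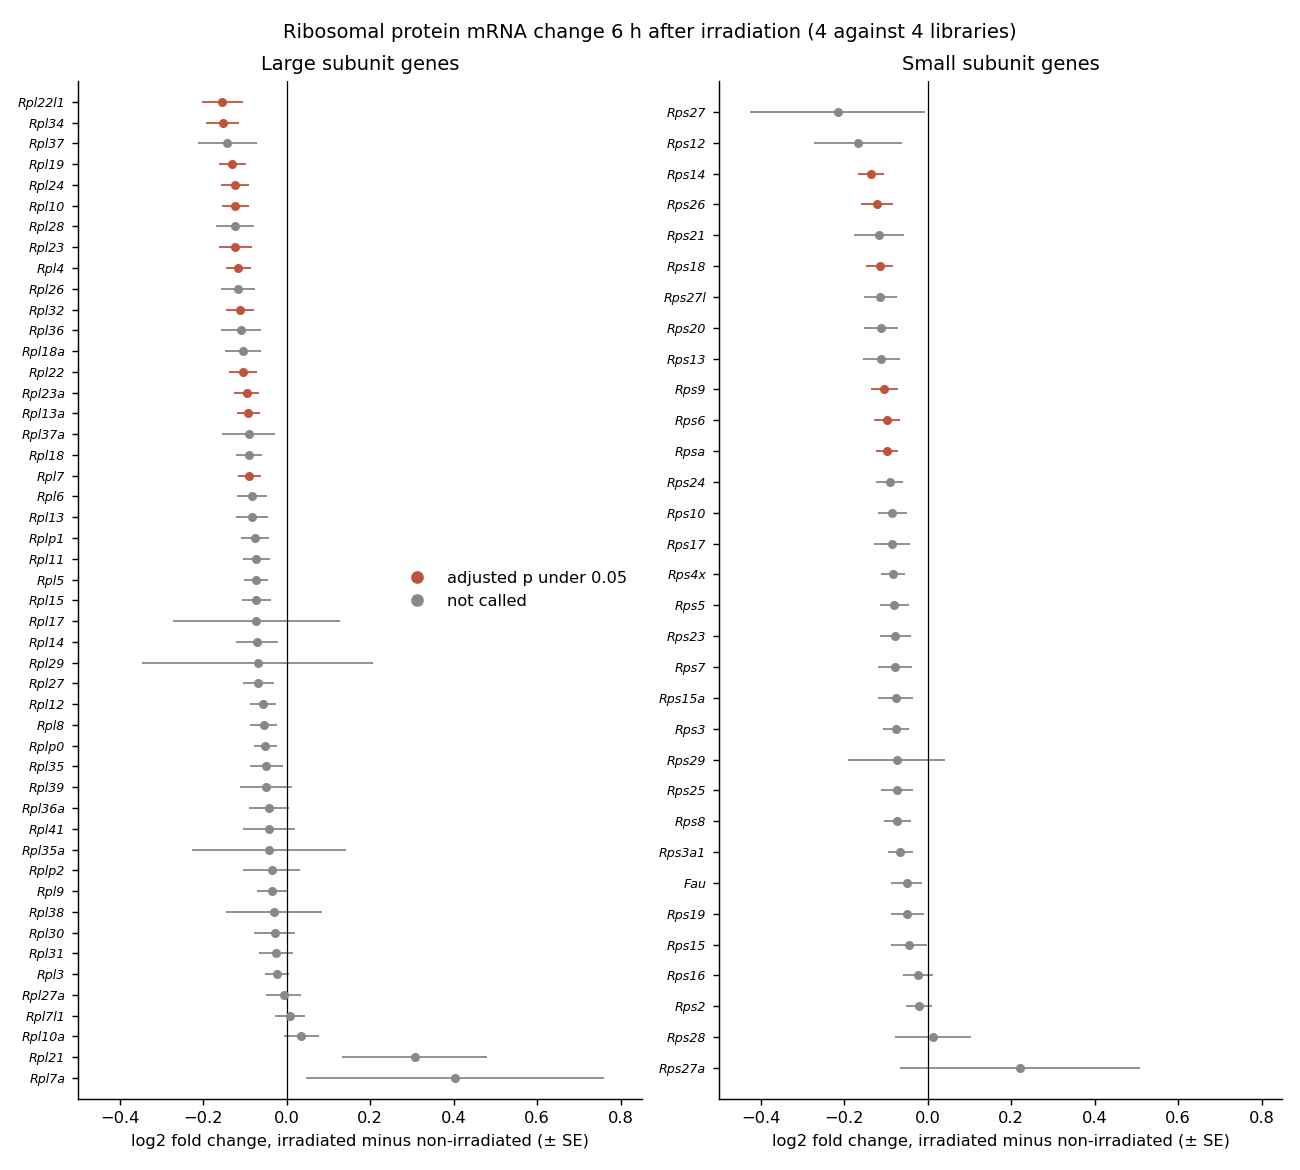
Log2 fold change (irradiated minus non-irradiated) with its SE for the tested members of the large and the small subunit, coloured where the adjusted p was under 0.05. Nearly all points lie left of 0, and the widest bars belong to Rpl7a, Rps27a, Rpl29, Rps27 and Rpl17.

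The proportions of the paralog pairs overlapped between the groups. Rpl7l1, which acts in making the large subunit, stood at 19.6% to 21.2% of the CPM of Rpl7 in non-irradiated and 21.03% to 22.1% in irradiated libraries, with an overlap between C6 and L8. Rpl22l1 was 35.3% ± 1.13 of Rpl22 in non-irradiated and 34.1% ± 1.36 in irradiated libraries, both genes having fallen. Rps27l, a target of p53, was at 118 ± 3.42 CPM and 109 ± 4.66 CPM (-0.11 ± 0.04, adjusted p = 0.065). Its ratio to Rps27 swung from 44.7% in C5 to 74.6% in C6, and from 43.3% to 62.7% among irradiated libraries, because Rps27 itself swung. Rps4l, annotated as a transcribed pseudogene and so not a member, was at 0.487% ± 0.146 and 0.665% ± 0.125 of Rps4x.

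Several of the members with the widest spread between libraries varied less once near-identical copies were added. A blastn search of each coding sequence against all annotated transcripts found 568 copies (at least 95% identity over at least 80% of the coding sequence and 50% of the copy) for 77 members, and 513 of them carried counts. The annotated gene held under 50% of its family's counts for 7 members. The share was 0.6% for Rpl29, 1.28% for Rpl21, 9.01% for Rpl35a, 21.02% for Rpl17, 31.1% for Rpl7a, 38.2% for Rpl30 and 48.6% for Rplp0. Not every spread shrank with the copies. Rplp0 and Rpl30 varied little alone (2.88% and 5.46% in non-irradiated libraries) and slightly more as families (3.4% and 6.97%), and Rps29 stayed at 13.6% in irradiated libraries. How the authors assigned reads that match several places is not given in the sources used here.

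Rpl7a shows the pattern in full. Alone it was at 113, 139, 231 and 146 CPM in C5 to C8 and at 159, 249.6, 299 and 125 CPM in L5 to L8. Summed with its copies it was at 591, 562, 610.1 and 583 CPM and at 573, 588, 567 and 590.1 CPM. The coefficient of variation went from 32.4% to 3.39% in non-irradiated and from 38.5% to 1.93% in irradiated libraries. As a family its log2 fold change was -0.02 ± 0.03 (adjusted p = 0.763, edgeR), so the higher mean of the gene alone was not seen in the sum. The pseudogenes Rpl7a-ps11 on chromosome X and Gm8226 on chromosome 9 carried 57391 and 57167 counts over the 8 libraries. Both differ from the 798-nt coding sequence at the same 2 places, A186G and A747C (position from 1 at the start codon, the base of Rpl7a first). The stretch from base 172 to 201 is shown because a read that covers neither place fits all of them alike; the capital marks the base that differs, and both are from GENCODE M21 transcripts.
Rpl7a: ccccgctacatcagActgcagcggcaaaga
Rpl7a-ps11: ccccgctacatcagGctgcagcggcaaaga

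For Rpl35a and Rpl23 the copy with the most counts differs at 1 place. Gm10243, on chromosome 6, has G156A against the 330 nt of Rpl35a and carried 26758 counts. Gm9794, also on chromosome 6, has C253T against the 420 nt of Rpl23 and carried 61527 counts. The stretches around these 2 places (bases 142 to 171 and 239 to 268 of the coding sequence) are given with the differing base in capitals.
Rpl35a: gcttatgtgtataaGgcaaaaaacaataca
Gm10243: gcttatgtgtataaAgcaaaaaacaataca
Rpl23: tggtaattcgacaaCgaaagtcatatcgaa
Gm9794: tggtaattcgacaaTgaaagtcatatcgaa
Rpl23 alone fell, but with its copies the log2 fold change was -0.09 ± 0.03 and the adjusted p was 0.0912.

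Rps27 and the retrogene Rps27rt have coding sequences with 0 differences over 252 nt. Rps27 was at 258, 154, 251 and 253 CPM and at 248, 184, 168 and 189 CPM. Rps27rt was at 22.2, 121, 25.7 and 67.8 CPM and at 26.0, 89.8, 77.8 and 49.3 CPM, and its highest value was in C6, where Rps27 had its lowest. As a family Rps27 was at 289 ± 22.0 CPM and 258 ± 18.7 CPM (SD, n = 4 each; log2 fold change -0.16 ± 0.06, adjusted p = 0.104). Rps27a, a ubiquitin fusion, was at 232, 207, 226 and 311 CPM and at 214, 293, 432 and 199 CPM, and with copies still varied by 15.7% between irradiated libraries. In L7, the library with the highest Rps27a, its pseudogene Rps27a-ps2 had its lowest count (1986, against 4782 to 6460 in the other libraries). Rpl17 varied by 16.5% and 24.6% alone and by 1.39% and 4.1% with copies, and as a family it passed the test (-0.11 ± 0.03, adjusted p = 0.0186). The same held for Rpl5 (-0.11 ± 0.03, adjusted p = 0.00851) and Rpl26 (-0.13 ± 0.04, adjusted p = 0.0345). Counted as families 19 members fell, of which 16 were also called alone. In that fit 7% of all features were called lower. Rpl23, Rpl23a and Rps26 lost the call.

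**Figure D5:**
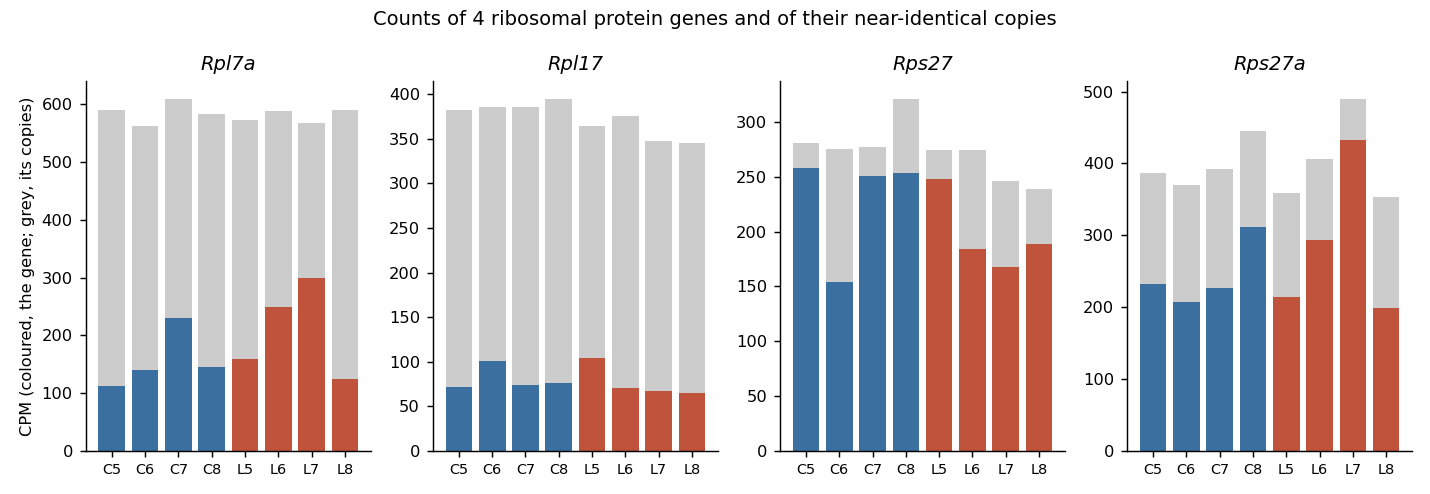
CPM of Rpl7a, Rpl17, Rps27 and Rps27a in each library (coloured part of a bar) with the summed CPM of their near-identical copies on top (grey). For Rpl7a the coloured part runs from 113 to 299 CPM while the whole bar stays between 562 and 610.1 CPM.

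A pyrimidine run like that of the TOP motif was more frequent at the start sites of the members than over all genes, though many members lacked it. RefSeq promoter windows (300 bases on GRCm38.p6, 250 before and 50 after the annotated start) matched 64 of the 84 members with 76 starts. Because annotated starts can be off by some bases, a run of at least 8 C or T was searched on the gene strand within 30 bases on either side of the start. It was present for 36 of 64 members (56.2%), against 25.8% of all 27025 genes in the table. Of the members that fell, 9 of 14 with a window had it, and of those not called 26 of 47. The hexamer CTTTCC, which can lie inside such a run, was found in the same stretch for 18.8% of members and 3.4% of all genes. CTTCCG, the core of ETS factor motifs, or its complement CGGAAG, searched over the whole window, was found for 65.6% of members and 18.8% of all genes, and for 56.5% of the mitochondrial ribosomal protein genes. Matches are of letters and were not tested as sites.

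The 30 bases centred on the start are shown for members that fell and have the run (Rpl34, Rpl4, Rpl13a, Rps18 and Rps6), for Rpl10, which fell and has no run there, and for Rpl35 and Fau, which have it and were not called. Capitals mark the pyrimidine run, 5′ to 3′ on the gene strand.
Rpl34 (chr3:130730323-130730352, minus strand): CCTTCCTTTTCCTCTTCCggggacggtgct
Rpl4 (chr9:64173372-64173401, plus strand): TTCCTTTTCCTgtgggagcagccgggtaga
Rpl13a (chr7:45128731-45128760, minus strand): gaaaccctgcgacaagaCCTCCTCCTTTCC
Rps18 (chr17:33955651-33955680, minus strand): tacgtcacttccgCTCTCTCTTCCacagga
Rps6 (chr4:86857353-86857382, minus strand): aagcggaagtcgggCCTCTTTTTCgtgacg
Rpl10 (chrX:74270801-74270830, plus strand): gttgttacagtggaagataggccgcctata
Rpl35 (chr2:39005117-39005146, minus strand): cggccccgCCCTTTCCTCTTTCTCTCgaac
Fau (chr19:6057932-6057961, plus strand): tgcgcgcccccaCTTCTTCCTCTTTCTTga
Within the 30 bases, runs of 10 to 18 letters stand beside genes that fell and, in Fau and Rpl35, beside genes that were not called. Those of Rpl34, Rpl4 and Rpl13a reach the edge of the shown stretch, so the whole run may be longer.

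Genes that work with the ribosomal proteins were described from 6 lists. Of 18 translation factors and other genes of the TOP class, 5 fell and 1 rose (all features 6.75% lower and 8.22% higher), and the median log2 fold change was -0.05 (all features -0.01). Eif3f, a subunit of an initiation factor, was at 151 ± 9.74 CPM and 126 ± 5.77 CPM (SD, n = 4 each; -0.26 ± 0.05, adjusted p = 0.000511, edgeR). Hnrnpa1, an RNA-binding protein with a TOP mRNA, was at 365 ± 7.45 CPM and 324 ± 2.66 CPM (-0.17 ± 0.03, adjusted p = 0.000268). The elongation factor subunits Eef1b2 (-0.14 ± 0.03, adjusted p = 0.00802) and Eef1g (-0.12 ± 0.03, adjusted p = 0.00566) fell too, and in all 4 of these genes every irradiated library was below every non-irradiated one. Of 5 companions outside the symbol rule only Rack1, the scaffold protein on the small subunit, fell (-0.09 ± 0.03, adjusted p = 0.0484), with groups that overlapped.

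Of 18 genes for the control of TOP mRNAs through mTORC1 and LARP1, 5 rose and 2 fell, with a median of 0.05, beside 8.22% higher and 6.75% lower over all features. Larp1b, a relative of LARP1, was at 26.3 ± 1.91 CPM and 32.9 ± 0.465 CPM (0.32 ± 0.06, adjusted p = 0.00138). Mtor, the kinase itself, was at 106 ± 3.96 CPM and 121 ± 7.73 CPM (0.19 ± 0.05, adjusted p = 0.0069), with 3 irradiated libraries above all non-irradiated ones. Eif4ebp1, the translation repressor that mTORC1 phosphorylates, was at 64.1 ± 3.27 CPM and 53.8 ± 4.01 CPM (-0.25 ± 0.06, adjusted p = 0.00471). Rheb, the small GTPase that activates mTORC1, fell as well (-0.17 ± 0.05, adjusted p = 0.0274). These are mRNA levels and give no measure of mTORC1 activity.

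Of 9 dedicated chaperones of ribosomal proteins 1 rose and the other 8 were not called, near the 8.22% of all features called higher. It was Grwd1, the chaperone of Rpl3, at 72.8 ± 3.99 CPM and 92.4 ± 4.86 CPM with no overlap (0.34 ± 0.05, adjusted p = 5.23e-05). Rpl3 itself was at 591 ± 13.1 CPM and 582 ± 14.97 CPM (-0.02 ± 0.03, adjusted p = 0.691). Of 78 mitochondrial ribosomal protein genes, 6 fell and 2 rose. Their median was -0.06, close to the -0.08 of the members and below the -0.01 of all features. The share that fell was near the 6.75% of all features, and the share that rose was under their 8.22%. Mrpl11 (-0.38 ± 0.07, adjusted p = 0.000975), Mrpl53 (-0.25 ± 0.08, adjusted p = 0.0366), Mrpl54 (-0.24 ± 0.07, adjusted p = 0.0251) and Mrpl24 (-0.20 ± 0.05, adjusted p = 0.00832) were the largest changes. Of the 7 listed paralogs of ribosomal proteins 4 were tested, and Rpl22l1 was called.

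Abundant and short genes outside the set give a further background. Of 2295 other tested genes with a non-irradiated mean of at least 100 CPM, 318 (13.9%) were called lower and 460 higher. More of them thus rose than fell, and the median on the log2 scale was 0.01. Within these, 229 genes with a coding length of up to 600 nt had a median of -0.03, with 61.6% of them below 0. Of these short genes 40 (17.5%) were called lower and 33 higher. Of the members 92.6% were below 0, 23.5% were called lower and 0 higher. Members mostly deviated together within a library, so these shares do not rest on separate observations. With the offsets for transcript length and GC content 65 of 81 members were below 0. The 8 that fell in that fit are a share near the 7.73% of all features called lower there. The part of length, GC content and RNA quality in the differences was not tested further.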

How the data were processed

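RNA-seq of 4 non-irradiated and 4 irradiated libraries was read from 1 table. The authors deposited whole-number estimated counts per gene (expected counts, as StringTie gives), not normalized. Per the submitters' processing notes, Trimmomatic 0.39, FastQC 0.11.9, HISAT2 2.2.1, StringTie 2.1.7, DESeq2 1.32.0 and the build GRCm39 are named; the sources used here do not give their roles, the annotation release, strand setting or handling of reads with several matches, so overlapping, antisense and copied genes are uncertain. A fragment may add about 4 counts, so counting error is larger than Poisson. Columns are numbered 5 to 8 and titles 1 to 4, so columns were tied to groups, not samples. Names, lengths and GC content came from GENCODE M21 (52083 of 55359 rows matched; the rest held 0.299% to 0.439% of counts), an annotation of an older build. Reads per kb use coding lengths, chosen after some annotated transcripts proved implausibly long.

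The main test was edgeR 4.0.16 in R 4.3.3 (filterByExpr with a minimum count of 10, TMM, glmQLFit with robust estimation, group as the only term, Benjamini-Hochberg threshold 0.05 over 15164 features); SE is the log2 fold change divided by the root of F. The fit was tested on simulated data with each gene drawn on its own. Such data hold no deviation shared by the members of a library, so the count of members that fell was not tested by it. Alternatives (20) covered scaling, filter, tool (DESeq2 1.42.0, limma 3.58.1), pseudogenes, copies (blastn 2.17.0), length and GC content, each library left out and a replicate block. Members and lists were chosen with earlier results of these data known. Named were the 10 largest falls and rises past the threshold, the 4 highest and 4 lowest of each subunit per kb, preset members and paralogs, and up to 4 genes per list; the other called members, Rpl7a, Rps12, Rpl17, Rps27rt and those with large copy shares or positive changes, and the motif definitions, were chosen after their values were seen. Some genes that the naming rule selects are not reported here, and the plots by gene leave out 1 member.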

Additional observations from a re-analysis of the deposited data

Results flagged for a closer look

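In 134 groups of 4 values (named genes and summed shares in each treatment group), 9 had a highest or lowest library whose gap to its neighbour took more of the whole range than Dixon's critical value, and chance flags about 1 group in 20. Among non-irradiated libraries the lowest value stood off in Rpsa (gap 0.897 of the range), Rpl7 (0.885) and Rps27 (0.927), each time in C6, and the highest value in Rps14 (0.833, C7) and Rpl17 (0.854, C6). Among irradiated libraries the lowest value stood off in Rpl11 (0.833, L7), Rpl13a (0.832, L5) and Mtor (0.843, L8), and the highest in Rpl17 (0.856, L5).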

How the results depend on the processing

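The direction of the median held under all 20 alternatives (members from -0.11 to -0.04), 0 members were higher in any, and no called result changed sign. The number that fell did not hold. Against 19 (12 large, 7 small), it was 8 (6 and 2) with offsets for length and GC content, where 7.73% of all features were lower. It was 43 (25 and 18) without both libraries numbered 6, where 7.62% of all features were lower. Leaving out single libraries gave 4 to 41 (large 2 to 23, small 1 to 18). With library totals 28 members fell (15 large and 13 small), where 8.87% of all features were lower. With limma-voom 14 fell (11 and 3), where 6.21% of all features were lower. The replicate block by column number gave 5 members lower (large 4, small 1), near the 4.95% of all features. Same-numbered libraries did not deviate together over the tested genes (correlations -0.0459 to 0.00144). The labels do not say whether the numbers pair the samples, and these correlations cannot decide it. With DESeq2, 25 members fell, 19 of them shared with the main result, and 8.38% of all features were lower. Most counts over the lists moved too, while TOP translation factors lower stayed at 5 with the replicate block and with the offsets. Companion genes lower went from 1 to 0 with limma-voom, with no filter, with the replicate block and with the offsets, and was 0 to 1 over left-out libraries. Chaperones higher were 2 with DESeq2, with counts divided by 4 and without the libraries numbered 6 (1 to 2 over left-out libraries), and chaperones lower 1 with library totals, upper-quartile scaling, DESeq2 and counts divided by 4 (0 to 1). Mitochondrial genes higher were 0 with library totals, upper-quartile scaling, no filter, the replicate block and without the libraries numbered 6 (0 to 2), and mitochondrial genes lower 10 with library totals and without the libraries numbered 6 (3 to 10). For mTORC1 and LARP1, higher were 2 with library totals, 3 with upper-quartile scaling, 2 with the replicate block and 3 with the offsets (2 to 6), and lower 1 with the block and with the offsets (1 to 2). TOP translation factors higher were 0 with library totals, upper-quartile scaling and the replicate block (0 to 1), and lower 4 to 8 over left-out libraries. The cause was not tested. For single genes, 153 of 1279 gene and setting pairs lost a call, 27 gained one, and 32 changed sign with no call under either setting. Rpl29 had only 53 to 113 counts a library, which limits its precision.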
